A study of Mus musculus with 18 samples.

Results

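Egr1, Egr2, Egr3, Nr4a1, Nr4a2, Nr4a3, Ier2, Ier3 and Myc are immediate-early genes, 9 of the 34989 genes to which the deposited transcript counts were summed. They were chosen by name from earlier results of these libraries, in which the summed estimated counts of several of them differed between storage times and between ventricles. Their differences are therefore given as descriptions. No p-value is printed for them, and their counts of calls at a threshold are no independent evidence. Hearts of C57B/L6 mice, aged 12 weeks in the sample labels and somewhat younger in the methods of the study, were flushed with the preservation solution HTK. They were perfused at once (0 h) or after 4 h or 8 h in cold HTK, and in every group warm Krebs buffer was then run through the heart outside the body for 60 min before the left ventricle (LV) and right ventricle (RV) were frozen. The 0 h group is therefore a flushed and perfused heart without storage, and no heart that was never perfused was among the samples. During perfusion a pressure balloon was placed in the RV first and in the LV afterwards, so ventricle and balloon order cannot be told apart. RNA of whole ventricles gave 18 libraries, with 3 per ventricle at each storage time, numbered 1 to 3. Mice of both sexes were used.

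Immediate-early genes are transcribed within minutes of a stimulus without new protein synthesis, and their mRNAs are mostly short-lived. Egr1, Egr2 and Egr3 encode zinc-finger transcription factors that bind GC-rich sites and are restrained by the corepressors Nab1 and Nab2. Their transcription is driven largely by the serum response factor, encoded by Srf, and its partners below the ERK kinase. Nr4a1, Nr4a2 and Nr4a3 encode orphan nuclear receptors that act without a known classical ligand, and their genes respond to cyclic AMP, through CREB and its CRTC coactivators, and to calcium. Ier2 encodes a small nuclear protein and Ier3 a stress-induced regulator of cell survival. Myc encodes a transcription factor that dimerises with Max and is known for raising ribosome production and cell growth. In the heart, such genes are known to respond to stretch, adrenergic stimulation and reperfusion.

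Promoter sequence from RefSeq (GRCm38.p6) was matched for 5 of the 9 genes, and not for Egr1, Egr3, Ier2 and Myc. The stretches below are shown because these genes are known to be controlled close to their starts and are those whose levels are described together here. Each runs 5′ to 3′ on the strand of the gene and holds no base of an annotated exon of its gene. Capitals mark the core of the cyclic AMP response element, TGACG on either strand, and the CArG box bound by serum response factor. The CArG box was searched only as CCWWWWWWGG, with W for A or T, and forms with a mismatch were not counted. All motifs were searched on both strands, and a TGACG core inside a full response element counts for both.
Egr2, chr10:67537619-67537868, plus strand: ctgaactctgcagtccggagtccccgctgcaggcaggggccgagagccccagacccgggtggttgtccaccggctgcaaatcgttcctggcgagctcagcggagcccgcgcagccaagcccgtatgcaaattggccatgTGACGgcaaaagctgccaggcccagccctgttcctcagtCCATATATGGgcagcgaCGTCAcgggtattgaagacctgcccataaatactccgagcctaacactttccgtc
Nr4a1, chr15:101266596-101266845, plus strand: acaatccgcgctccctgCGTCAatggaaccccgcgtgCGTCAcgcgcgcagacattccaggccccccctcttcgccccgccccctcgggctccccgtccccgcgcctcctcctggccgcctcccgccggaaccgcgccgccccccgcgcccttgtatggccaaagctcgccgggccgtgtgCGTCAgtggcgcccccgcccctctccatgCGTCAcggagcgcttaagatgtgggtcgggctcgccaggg
Nr4a3, chr4:48045055-48045152, plus strand: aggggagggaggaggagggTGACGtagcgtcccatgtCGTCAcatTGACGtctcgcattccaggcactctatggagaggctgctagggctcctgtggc
Ier3, chr17:35821463-35821683, plus strand: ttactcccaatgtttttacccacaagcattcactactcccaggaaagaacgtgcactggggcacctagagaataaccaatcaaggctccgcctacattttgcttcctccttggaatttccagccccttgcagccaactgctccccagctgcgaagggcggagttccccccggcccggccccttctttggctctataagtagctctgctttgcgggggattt
The Egr2 stretch held 1 CArG box, 72 bases before the start, and 2 TGACG cores. The Nr4a1 stretch held 4 TGACG cores and no CArG box, and the Nr4a3 stretch held 3 cores in its 98 bases. The Ier3 stretch held neither motif. Nr4a2, whose RefSeq entry lies 8965 bases upstream of the start of its most counted transcript, held 4 TGACG cores in the 250 bases before the RefSeq start. Of all 32851 RefSeq starts, 17.8% held a TGACG core and 1.47% a CArG box in the 250 bases before them. The full cyclic AMP response element TGACGTCA was in none of the 5 windows and in 1.55% of all starts. The site GCGNGGGCG bound by EGR proteins was found once in the windows of Nr4a1 and Nr4a2 and in 4.7% of all starts, and the NR4A site AAAGGTCA was in none of the 5 windows and in 1.34% of all starts. These matches are letters in a window and were not measured as bound sites.

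The libraries held between 22552581 and 46236771 estimated counts, with the lowest total in number 3 of LV at 8 h and the highest in number 1 of LV at 0 h. Genes of the mitochondrial genome took 22.7% to 34.4% of the counts, and between 32.0% and 34.4% in the 6 libraries at 8 h. All 8 ventricular cardiomyocyte markers were present in every group, with summed levels of 5.86e+04 to 7.13e+04 CPM at 0 h and 4 h and 3.03e+04 to 5.89e+04 CPM at 8 h, the lowest in number 3 of RV. The 6 neutrophil markers, each above 0 in at least 1 library, summed to 1.01 to 2.61 CPM at 0 h, 3.51 to 9.14 CPM at 4 h and 9.9 to 18.3 CPM at 8 h, and the 6 macrophage markers to 113 to 213 CPM at 0 h and 154 to 322 CPM at 8 h. The part of these shifts in the differences between storage times was not tested. The 4 red cell markers were highest in number 1 of the stored groups, with up to 194 CPM in LV at 8 h. The 4 Y-linked genes summed to 4.63 to 6.78 CPM in number 2 at 0 h and number 3 at 4 h and 8 h, in both ventricles, and to 133 to 194 CPM in every other library. In whole ventricles, a change in the number of cells of a type and a change in RNA per cell cannot be told apart. Beyond replicate numbers, the labels do not say whether the hearts of 1 group were handled on separate days. The errors therefore measure the spread between these samples.

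The 9 genes lie on 8 chromosomes of GRCm38. Egr1 is at chr18:34859823-34864984, Egr2 at chr10:67535475-67542188 and Egr3 at chr14:70077203-70082614, all on the plus strand. Nr4a1 is at chr15:101254269-101274795 and Nr4a3 at chr4:48045153-48086447 on the plus strand, and Nr4a2 is at chr2:57106830-57124003 on the minus strand. Ier2 is at chr8:84661331-84662852 on the minus strand, and Ier3 at chr17:35821684-35822923 and Myc at chr15:61985391-61990374 are on the plus strand.

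Compared per transcript length, in TPM, a unit that sums to the same total in every library, Egr1 had the highest mean level of the 9 genes in every group. Its level was 336 ± 137 TPM (SD, n = 3) in LV and 208 ± 124 TPM in RV at 0 h, and 279 ± 129 TPM in LV and 530.2 ± 120 TPM in RV at 8 h. Nr4a1 had the second highest mean at 0 h and 4 h, from 188 to 304 TPM, and the fourth highest at 8 h, with 85.7 ± 40.4 TPM in LV and 171 ± 44.5 TPM in RV. At 0 h the ranges of Egr1, Nr4a1, Ier3 and Ier2 overlapped between neighbours in this order in both ventricles. Egr3, Nr4a3 and Egr2 followed with means of 13.5 to 51.5 TPM at 0 h, and Myc and Nr4a2 had the lowest means, between 9.82 and 17.2 TPM, with ranges that overlapped. At 8 h, Myc ranked 5 of 9, at 30.5 ± 7.38 TPM in LV and 51.6 ± 9.93 TPM in RV, and Nr4a2 was last in both ventricles.

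All following levels are in CPM, counts scaled to a common library total by TMM across the 18 libraries, and differences are log2 differences with their standard error (SE) from a fit of edgeR over all genes. A gene was called when its adjusted p in that fit was under 0.1 and its fold change over 1.5. All 9 genes passed the filter on low counts.

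In RV, the log2 difference from 0 h was above 0 for all 9 genes at both storage times with all libraries in the fit. At 4 h, 5 of them were called higher, beside 6.17% of all genes tested, and at 8 h 6 were called higher, beside 13% of all genes. None was called lower, where 3.91% and 5.26% of all genes were. With the replicate number as a block, which joins different hearts by a shared number, 7 were called higher at each time, beside 8.45% and 15.5% of all genes. Without number 2 of RV at 0 h the counts without the block were 1 and 3, and without number 1 of RV at 0 h they were 8 and 7. At 4 h the count was also 1 without number 3 of RV at 0 h or number 1 of RV at 4 h, and 3 without number 2 of RV at 4 h. In LV, Myc was the 1 gene called higher at 4 h, where 2.4% of all genes were higher and 0.398% lower, and Egr3 was the 1 gene called lower at 8 h, where 1.26% were. None was called higher in LV at 8 h, where 5.46% of all genes were called higher. The count in LV at 4 h was 0 without any 1 of 7 of the 9 LV libraries and 2 without number 3 of 8 h, and that at 8 h was 0 without number 2 of 0 h or number 1 of 8 h, 2 without number 2 of 8 h and 3 without number 3 of 8 h. Without number 1 of 0 h it stayed at 1, but the gene called at 8 h was then Myc, higher, and Egr3 was not called. Nothing is read from these counts, since the list was drawn up with such results in view.

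**Figure D1:**
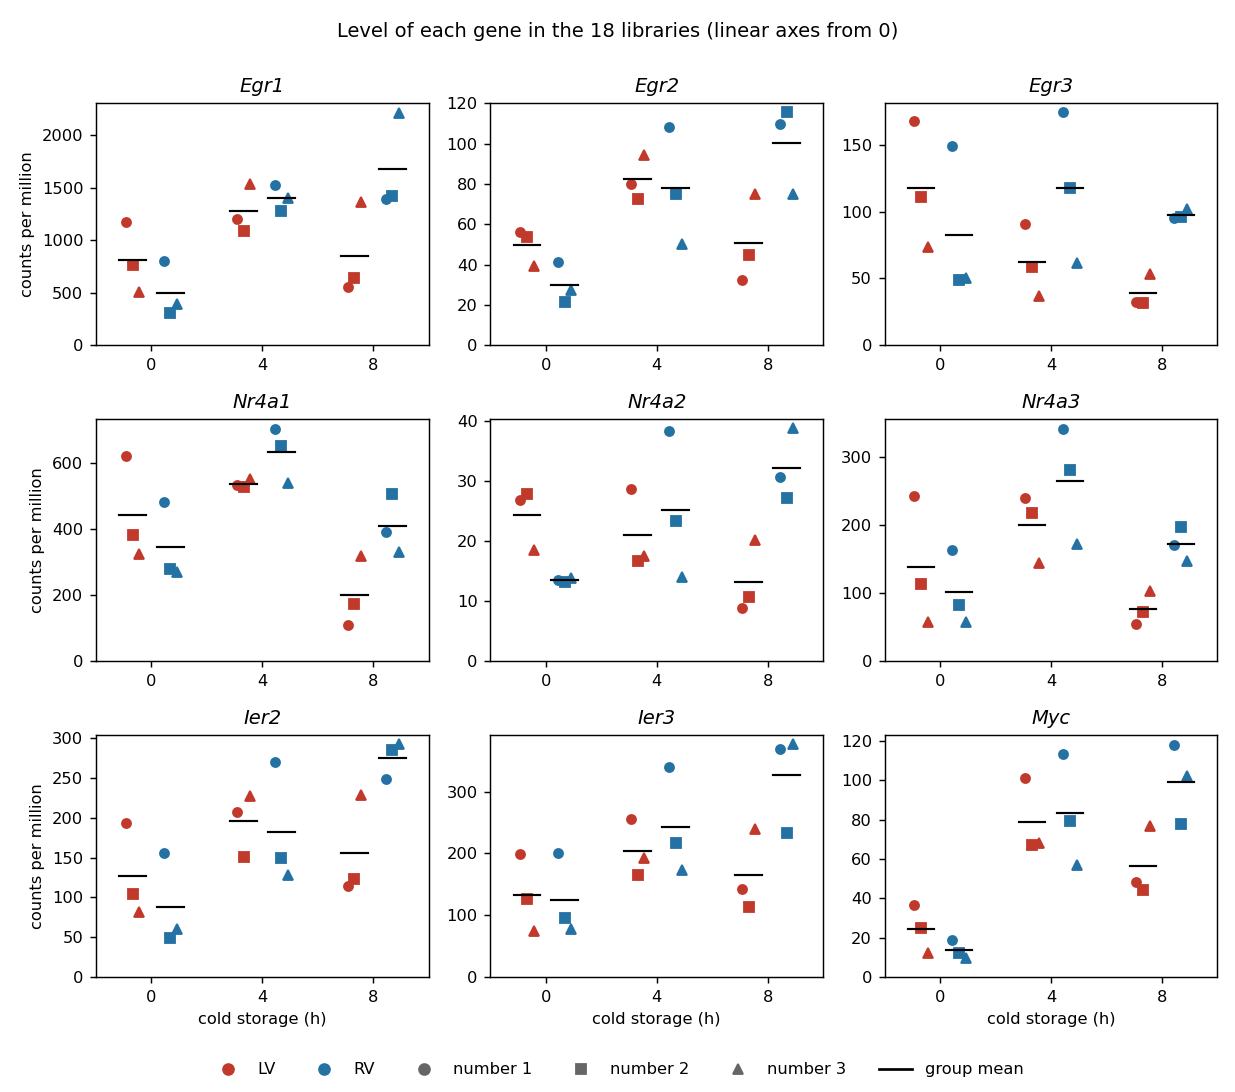
Level of each of the 9 genes in CPM (linear axes starting at 0) against cold storage time in h, with LV in red and RV in blue. Each point is 1 library, its shape gives the replicate number and the line is the mean of 3 libraries. At 8 h the RV points lie above the LV points without overlap for every gene except Ier3, while at 0 h the means of LV are the higher ones.

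Egr1, the gene of the group with the most counts, was at 1169.9, 763 and 511 CPM in LV libraries 1 to 3 at 0 h, at 1202, 1087 and 1540.1 CPM at 4 h and at 556, 636 and 1362 CPM at 8 h. In RV it was at 799, 305 and 396 CPM at 0 h, 1523, 1279.5 and 1406 CPM at 4 h and 1396, 1426 and 2214 CPM at 8 h. Every stored RV library was above every RV library at 0 h, whereas the LV values at 0 h and 8 h overlapped. The log2 difference from 0 h in RV was 1.502 ± 0.37 (SE, n = 3 per group) at 4 h and 1.77 ± 0.37 at 8 h, both called. In LV it was 0.65 ± 0.38 at 4 h and 0.07 ± 0.38 at 8 h, and it was -0.46 at 8 h without number 3 of LV at 8 h.

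Egr2 was lower in level but had the same shape. In LV it was at 56.3, 53.7 and 39.1 CPM at 0 h, 80.2, 72.4 and 94.5 CPM at 4 h and 32.5, 44.6 and 74.8 CPM at 8 h. Its RV values were 41.1, 21.7 and 27.2 CPM at 0 h, 108, 75.2 and 50.004 CPM at 4 h and 109.8, 115 and 75.2 CPM at 8 h. The 4 h libraries did not overlap those at 0 h in either ventricle, and the 8 h libraries did not in RV. In RV the log2 differences of 1.39 ± 0.32 at 4 h and 1.75 ± 0.33 at 8 h were called, and those in LV, 0.73 ± 0.28 and 0.03 ± 0.28, were not.

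Egr3 went another way in LV. There it was at 167, 111 and 73.9 CPM at 0 h, 90.7, 58.7 and 37.1 CPM at 4 h and 32.5, 31.5 and 53.2 CPM at 8 h. Its RV libraries held 149, 48.6 and 50.1 CPM at 0 h, 174, 118 and 61.7 CPM at 4 h and 95.1, 96.1 and 102 CPM at 8 h. All LV libraries at 8 h lay below all at 0 h, and the RV ranges overlapped at every step. The LV log2 difference was -0.92 ± 0.38 at 4 h and -1.58 ± 0.39 at 8 h, the latter called but -1.24 and not called without number 1 at 0 h, and the RV differences were 0.52 ± 0.47 and 0.25 ± 0.47. The RV values turn on number 1 at 0 h, without which they were 1.28 and 1.00, and that at 8 h was -0.02 without number 2 and -0.01 without number 3 of RV at 0 h.

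Nr4a1, the most abundant of the nuclear receptor genes, had its highest mean at 4 h in RV and its lowest at 8 h in LV. In LV it was at 621, 382 and 324 CPM at 0 h, 535, 527 and 552 CPM at 4 h and 109, 174 and 319.6 CPM at 8 h. The RV levels were 483, 279 and 271 CPM at 0 h, 704, 653 and 540.1 CPM at 4 h and 391, 505 and 329 CPM at 8 h. The 8 h libraries lay below the 4 h libraries without overlap in both ventricles, with log2 differences of -1.42 ± 0.37 in LV and -0.64 ± 0.27 in RV. Against 0 h, the RV difference at 4 h, 0.89 ± 0.27, was called, while those at 8 h were -1.14 ± 0.37 in LV and 0.25 ± 0.27 in RV.

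Nr4a3, which encodes a receptor of the same family, also had its highest means at 4 h. In LV it was at 242, 114 and 58.0 CPM at 0 h, 239, 217 and 144 CPM at 4 h and 55.1, 72.0 and 103 CPM at 8 h. In RV it was at 163, 82.5 and 57.3 CPM at 0 h, 341, 281 and 172 CPM at 4 h and 171, 196 and 147 CPM at 8 h. The groups at 0 h spread widely, and in LV the 8 h libraries lay below those at 4 h without overlap, with a log2 difference of -1.38 ± 0.46. The RV difference from 0 h was 1.40 ± 0.38 at 4 h, which was called, and 0.77 ± 0.38 at 8 h, which was called with the replicate number as a block, at 0.91 ± 0.27. That at 8 h was 1.31 without number 1 of RV at 0 h and 0.48 without number 3. The LV differences were 0.54 ± 0.46 and -0.84 ± 0.46, which were 1.22 and -0.17 without number 1 at 0 h.

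Nr4a2, the least abundant of the 3 receptor genes, was at 26.8, 27.9 and 18.5 CPM in LV at 0 h, 28.7, 16.7 and 17.5 CPM at 4 h and 8.82, 10.7 and 20.2 CPM at 8 h. Its RV values were 13.5, 13.1 and 13.8 CPM at 0 h, 38.4, 23.3 and 14.0 CPM at 4 h and 30.7, 27.2 and 38.9 CPM at 8 h. The 3 RV libraries at 0 h lay within 1 CPM of each other, below all stored RV libraries and below all LV libraries at 0 h. The RV log2 difference was 0.92 ± 0.31 at 4 h and 1.28 ± 0.32 at 8 h, and the latter was called. The LV differences were -0.22 ± 0.33 and -0.89 ± 0.33. With offsets for transcript length the value of -0.22 became 0.37. Of its transcripts, 2 begin at the distal start. The longer took a median of 11.6% of the Nr4a2 counts in LV at 0 h, 2.44% at 4 h and 36.2% at 8 h, with ranges from 0% to 12.0%, 0.603% to 14.0% and 11.5% to 47.8%. In RV the medians were 0.509%, 7.95% and 11%, with overlapping ranges of 7.38e-06% to 21.3%, 6.21% to 20.6% and 6.15% to 18.8%. The shorter, annotated for nonsense-mediated decay, had LV medians of 3.67%, 4.81% and 0% and RV medians of 3.32%, 10.4% and 8.94%. Its ranges were 3.2% to 4.18%, 0% to 7.29% and 0% to 0% in LV, and 0% to 4.42%, 2.8% to 15.1% and 1.66% to 9.07% in RV.

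Ier2 and Ier3, each annotated with 1 transcript, were close to each other in pattern. Ier2 was at 193, 105 and 81.9 CPM in LV at 0 h, 207, 151 and 228 CPM at 4 h and 115, 123 and 229 CPM at 8 h. Its RV values were 156, 49.6 and 60.2 CPM at 0 h, 270.0, 149.7 and 128 CPM at 4 h and 248, 285 and 292 CPM at 8 h. The RV libraries at 8 h lay above those at 0 h without overlap, and the LV ranges overlapped throughout. Its RV log2 differences were 1.06 ± 0.44 at 4 h, called at 1.13 ± 0.34 with the replicate number as a block, and 1.65 ± 0.44 at 8 h, called without it. The difference at 4 h was 1.75 without number 1 of RV at 0 h and 0.66 without number 1 of RV at 4 h. Its LV differences were 0.63 ± 0.36 and 0.30 ± 0.36.

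Ier3 was at 199.6, 126 and 74.0 CPM in LV at 0 h, 256, 166 and 192 CPM at 4 h and 142, 113 and 239.6 CPM at 8 h. The RV libraries held 200.4, 96.0 and 77.4 CPM at 0 h, 339, 217 and 173 CPM at 4 h and 369, 233 and 377 CPM at 8 h. Number 1 was the high library at 0 h in both ventricles and at 4 h in both. The RV difference of 1.40 ± 0.40 at 8 h was called and that of 0.98 ± 0.39 at 4 h was not, while with the replicate number as a block it was called at 1.03 ± 0.28. Without number 1 of RV at 0 h the difference at 4 h was 1.51. The LV differences were 0.62 ± 0.38 and 0.31 ± 0.38.

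Myc had the largest difference from 0 h of the 9 genes in both ventricles at both times, apart from Egr3 in LV at 8 h, whose difference was larger in size and negative. In LV it was at 36.8, 24.8 and 12.4 CPM at 0 h, 101, 67.0 and 68.0 CPM at 4 h and 48.3, 44.1 and 76.6 CPM at 8 h. In RV it was at 19.1, 12.2 and 9.80 CPM at 0 h, 113, 79.0 and 57.1 CPM at 4 h and 118, 77.7 and 102 CPM at 8 h. Stored libraries lay above those at 0 h without overlap in all 4 comparisons. The log2 differences in RV were 2.61 ± 0.33 at 4 h and 2.87 ± 0.33 at 8 h, a fold of 6.12 and 7.29, and both were called. In LV they were 1.67 ± 0.38 at 4 h, which was called, and 1.19 ± 0.37 at 8 h, which was not. Without number 3 of LV at 8 h, Myc was the 1 gene of the 9 above 0 in LV at 8 h.

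**Figure D2:**
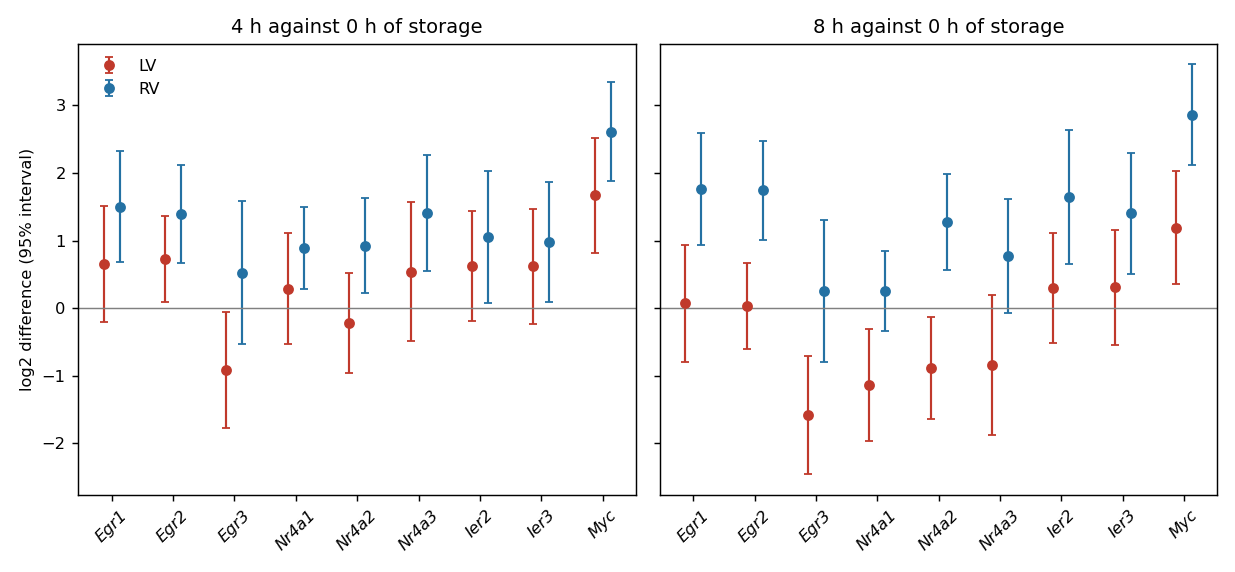
Log2 difference of each gene from 0 h after 4 h (left) and 8 h (right) of cold storage, in LV (red) and RV (blue), from the edgeR fit of each ventricle. Points are estimates from 3 libraries a group and bars are 95% intervals. Every RV point is above 0, and at 8 h the LV points range from -1.58 for Egr3 to 1.19 for Myc.

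Between 4 h and 8 h, the log2 differences of all 9 genes were below 0 in LV, from -1.42 for Nr4a1 to -0.31 for Ier3. In RV 6 were above 0 and 3, Egr3, Nr4a1 and Nr4a3, were below 0. Libraries did not overlap for 2 genes in LV, Nr4a1 and Nr4a3, both lower, where 7.59% of all genes did so in that direction, and for Nr4a1 in RV, where 7.05% did. In this step edgeR called 0 of the 14564 genes tested in LV and 0 of 14622 in RV. At an unadjusted p under 0.05 it found 1180 genes in LV, among them 3 of the 9, and 961 in RV, among them 1. DESeq2, whose share of all genes is not given here, called 2 of the 9 lower in LV and none in RV.

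The non-overlap counts against 0 h were 2 genes higher in LV at 4 h, Egr2 and Myc, where 13.1% of all genes were. In LV at 8 h Myc was higher, where 15.7% of all genes were, and Egr3 and Nr4a1 were lower, where 13% were. In RV, 6 of the 9 genes were higher without overlap at 4 h and 6 at 8 h, where 15.9% and 18.6% of all genes were.

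Within a heart, LV held the higher level of most of these genes at 0 h and RV the higher level of all 9 at 8 h. LV and RV libraries that bear the same number were taken as 1 heart, from a check of shared deviations given with the processing. At 0 h, the LV library was above the RV library in 25 of 27 pairs over the 9 genes. LV was above in all 3 pairs for 8 genes, beside 22.4% of the 12719 genes with a mean of at least 1 CPM. At 4 h, LV was below RV in 19 of 27 pairs. Egr3 and Nr4a3 were below in all 3, beside 22.5% of the 12719 genes. At 8 h, LV was below RV in all 27 pairs. All 9 genes were below in all 3, beside 24.8% of the 12719 genes. The 9 genes share their 3 hearts, so these pairs are not independent of each other.

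At 0 h the log2 differences of LV from RV ranged from 0.10 ± 0.41 for Ier3 to 0.86 ± 0.35 for Nr4a2 in the fit without hearts, and were above 0 for all 9. Without number 1 of LV at 0 h, 2 of the 9 were below 0. None was called in that fit by edgeR, beside 0.159% of all genes, or by DESeq2, and 3 had an unadjusted p under 0.05 in each. In edgeR, 484 of all 15093 genes tested had such a p. With the heart as a block, Egr1, Egr3, Nr4a2 and Myc were called higher in LV, beside 0.835% of all genes. Of these, Nr4a2 was the gene without overlap between ventricles, where 4.71% of all genes were. Leaving out the heart of 0 h number 2 left none called, beside 0.346% of all genes higher, and that of number 1 left Egr3, beside 0.365%.

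At 4 h the log2 differences lay between -0.40 and 0.10 for all genes but Egr3. EdgeR without hearts and DESeq2 called none of the 9, beside 0.0133% of all genes in edgeR, with 0 and 1 at an unadjusted p under 0.05. In edgeR, 446 of all 15093 genes tested had such a p. Egr3 was at -0.92 ± 0.47 without hearts and -0.90 ± 0.17 with the heart as a block, which was called, beside 1.09% of all genes, and was not called when any 1 of the 3 hearts of 4 h was left out. Egr3 in LV was 0.498 to 0.601 of its level in RV across the 3 hearts.

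At 8 h every gene was lower in LV, by log2 differences of -0.82 ± 0.37 (Myc) to -1.32 ± 0.47 (Egr3) without hearts. In that fit edgeR called none of the 9, beside 0.0331% of all genes, with 8 at an unadjusted p under 0.05, where 1669 of all 15093 genes tested were. DESeq2, whose share of all genes is not given here, called 1. Without number 3 of LV at 8 h, edgeR called 4, in a fit whose share of all genes is not given here. With the heart as a block the differences ranged from -0.84 ± 0.16 (Myc) to -1.36 ± 0.17 (Egr3), and all 9 were called lower in LV, beside 6.53% of all genes. The libraries of 8 genes did not overlap, where 5.94% of all genes were lower without overlap, and Ier3 overlapped because its highest LV library, at 239.6 CPM, passed its lowest RV library, at 233 CPM.

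The hearts differed in size of effect at 8 h. Nr4a1 in LV was at 0.279 of its RV level in the heart with the largest gap and 0.971 in the heart with the smallest, and Egr2 was at 0.296 and 0.994. Heart number 3 had the smallest gap for all 9 genes, and its LV library was the highest of its group for all 9. It was also the 8 h heart with the low Y-linked sum, 6.65 CPM in LV and 6.78 CPM in RV, and its cardiomyocyte sum was 4.53e+04 CPM in LV and 3.03e+04 CPM in RV. Without heart 3 all 9 genes were still called lower in LV, with log2 differences of -1.69 to -1.05, beside 7.21% of all genes. Without heart 1, 7 were called, beside 4.04% of all genes, and without heart 2, 8 were, beside 6.71%. Number 1 of RV at 8 h had the highest sums of fibroblast and atrial markers, 1.54e+03 and 800 CPM, against 1.1e+03 and 357 CPM in LV of the same heart, and without that heart the 7 genes called were all but Egr2 and Ier2.

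**Figure D3:**
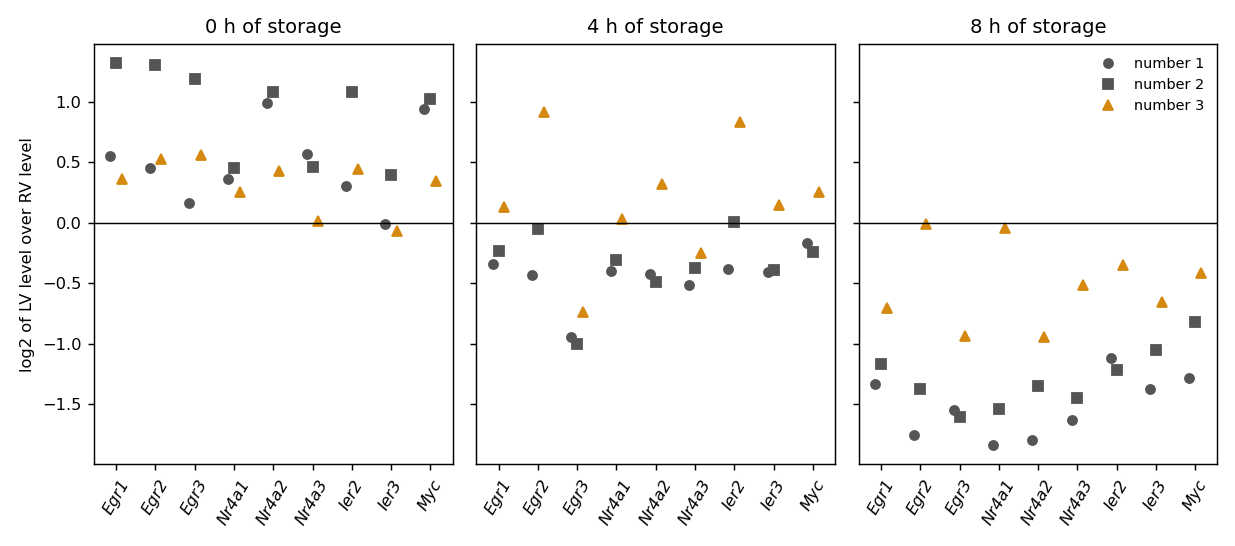
Log2 ratio of the LV level to the RV level of the same-numbered libraries for each gene after 0, 4 and 8 h of cold storage. Each point is 1 heart, with number 3 in orange, and the line at 0 marks equal levels. The points lie mostly above 0 at 0 h and all below 0 at 8 h, with number 3 nearest to 0.

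The change from 0 h to 8 h was lower in LV than in RV for all 9 genes, by log2 differences of -1.08 ± 0.58 (Ier3) to -2.15 ± 0.49 (Nr4a2) without hearts. Neither edgeR, beside 0% of all genes, nor DESeq2 called any in that fit, and 8 had an unadjusted p under 0.05 in each. In edgeR, 628 of all 15093 genes tested had such a p. With the heart as a block all 9 were called, beside 4.72% of all genes lower, with values of -1.14 ± 0.21 for Ier3 to -2.19 ± 0.26 for Nr4a2. At 4 h the same difference was below 0 for all 9 and called for Egr3, at -1.53 ± 0.24 with the heart as a block, beside 0.265% of all genes, a call lost without the heart of 0 h number 2 or 3 or of 4 h number 1 or 2. Without the heart of 8 h number 3, 6 of the 9 were called at 4 h, beside 0.902% of all genes lower. Since 0 h enters this difference, the higher LV levels at 0 h are part of it. For Nr4a2, with the heart as a block, LV differed from RV by 0.84 ± 0.18 at 0 h and by -1.35 ± 0.18 at 8 h.

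Among themselves the 9 genes did not all follow 1 pattern. Over the 18 libraries, as log2 CPM, Egr1 and Ier2 had a Pearson correlation of 0.92, Ier2 and Ier3 one of 0.91 and Egr2 and Ier2 one of 0.91. Nr4a1 and Nr4a3 had one of 0.87. The lowest were between Egr3 and Myc, at 0.18, and between Nr4a1 and Myc, at 0.33. With other genes Myc was close, at 0.86 with Egr1 and Egr2 and 0.87 with Ier2 and Ier3. These are descriptions over libraries that share groups, hearts and scaling. Number 1 was the highest library for 8 of the 9 genes at 0 h in each ventricle, and for all 9 in RV at 4 h, and number 3 was the lowest for all 9 in LV at 0 h.

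The genes whose levels followed Egr1 most closely over the 18 libraries, among 12718 genes with a mean of at least 1 CPM, were Atf3 (r = 0.98), Arid5a (0.96) and Zfp36 (0.94). Those nearest to Nr4a1 were Otud1 (0.91), Ccn1 (0.87) and Nr4a3 (0.87). Those nearest to Myc were Thbs1 (0.98), Fosl2 (0.98) and Tuba1c (0.98). The genes were chosen as the highest correlations and no test was made of them.

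The split of counts between annotated transcripts was a further readout. Of the Egr1 counts, 84.0% to 88.4% went to the shorter of its 2 transcripts in all 18 libraries, with medians of 84.7% to 86.9% per group. Of the Egr2 counts, 75.4% to 96.5% went to the transcript whose start is shown above. Egr3 had 12.0% to 44.0% of its counts on a transcript annotated as a retained intron, with medians from 19.4% in RV at 4 h to 26.2% in LV at 4 h and overlapping ranges. Nr4a3 had 53.6% to 90.2% on the transcript from its first start. For Myc, 2 transcripts of the same length and position were given equal counts in every library, so their split is not informative.

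Most of a list of 39 other immediate-early genes, among them Fos, Jun and Atf3, were called higher in stored RV. The list was drawn up with earlier results of these libraries known, as were those below, so its counts and p-values are not independent evidence. Npas4 did not pass the filter on low counts in the storage fits. Of the 38 tested, 28 rose in RV at 4 h and 36 at 8 h, and none fell, beside 6.17% and 13% of all genes higher. Without number 2 of RV at 0 h these counts were 9 and 27, and at 4 h the count was 12 without number 3 of 0 h and 16 without number 1 of 4 h. In LV 3 rose at 4 h (Dusp6, Rhob and Nfil3, of which Dusp6 and Nfil3 are named after their values were seen) and 2 at 8 h (Dusp2 and Rhob), beside 2.4% and 5.46% of all genes. Without number 1 of LV at 0 h these counts were 15 and 9, without number 3 of LV at 8 h they were 17 and 0, and without number 2 of LV at 0 h both were 0. The median log2 difference was 1.47 at 4 h and 1.86 at 8 h in RV, and 0.91 and 0.54 in LV, with a median of all genes between -0.07 and 0.00 in the 4 comparisons. With the replicate number as a block the counts were 32 and 37 in RV, beside 8.45% and 15.5% of all genes higher. With the heart as a block, 35 of 39 were called lower in LV than in RV at 8 h, beside 6.53% of all genes, and 0 without it, beside 0.0331%. The 2 genes of the list not called in RV at 8 h, named after their values were seen, were Egr4, with a log2 difference of 1.59 ± 0.94, and the clock gene Per1, with 0.19 ± 0.18.

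Fos, a partner of Jun in the AP-1 factor, rose in RV to 902 ± 146 CPM (SD, n = 3) at 8 h from 177 ± 41.7 CPM at 0 h, a log2 difference of 2.37 ± 0.28 with an edgeR adjusted p of 0.00165. In LV it was at 391 ± 134 CPM at 0 h, 1098 ± 330 CPM at 4 h and 549 ± 356 CPM at 8 h, and the difference at 8 h, 0.50 ± 0.44, had an adjusted p of 0.517. Jun rose in RV by 1.57 ± 0.26 at 8 h (adjusted p = 0.00665, edgeR), with 0.17 ± 0.37 in LV (adjusted p = 0.807). Atf3, a stress-induced factor of the same class, rose in RV by 2.39 ± 0.38 (adjusted p = 0.00563, edgeR), with 0.44 ± 0.53 in LV (adjusted p = 0.634). Without number 3 of LV at 8 h, the LV differences at 8 h were -0.19 for Fos, -0.47 for Jun and -0.41 for Atf3. With the heart as a block, the change at 8 h in LV minus that in RV was -2.01 for Fos, -1.53 for Jun and -2.14 for Atf3, with edgeR adjusted p-values of 0.0195, 0.0129 and 0.00201, and without hearts each had an adjusted p of 1.

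Dusp2, a phosphatase of MAP kinases, rose in both ventricles at 8 h, by 1.63 ± 0.42 in LV and 2.34 ± 0.54 in RV (adjusted p = 0.069 and 0.0228, edgeR). The small GTPase gene Rhob rose at both times in both ventricles, at 8 h by 0.73 ± 0.21 in LV and 1.21 ± 0.22 in RV (adjusted p = 0.0905 and 0.01, edgeR). The LV calls of both genes at 8 h were lost without number 2 or 3 of 0 h, number 1 of 4 h or number 3 of 8 h, and also without number 1 of 8 h for Dusp2 and number 1 of 0 h for Rhob, and the RV call of Dusp2 without number 2 of 0 h. That of Rhob in LV at 4 h was lost without any 1 of 5 libraries.

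**Figure D4:**
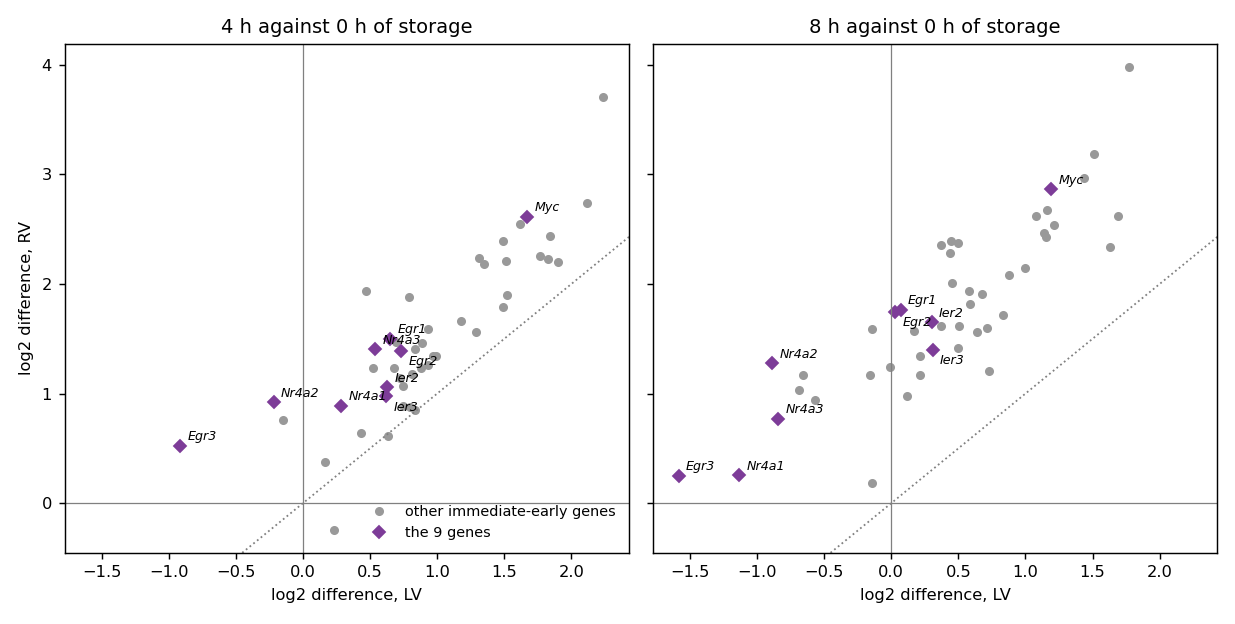
Log2 difference from 0 h in RV against that in LV after 4 h (left) and 8 h (right) of storage, for the 9 genes (purple, named) and the other immediate-early genes tested (grey). The dotted line marks equal differences. At 8 h all points lie above the dotted line, and of the 9 genes Egr3, Nr4a1, Nr4a2 and Nr4a3 lie to the left of 0.

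Few regulators and cofactors of the 9 genes were called in LV, and those called in RV went in both directions. Of 30 tested, 1 rose in LV at 4 h (Srf) and 1 at 8 h (Crtc2), beside 2.4% and 5.46% of all genes. In RV, 3 rose and 4 fell at 4 h, beside 6.17% and 3.91% of all genes, and 5 rose and 4 fell at 8 h, beside 13% and 5.26%, so the higher calls were near the share of all genes. Without number 2 of RV at 0 h, 0 of them were called in RV at 4 h and 3 at 8 h, and without number 2 of LV at 0 h none was called in LV. Srf, which encodes serum response factor, was at 115 ± 23 CPM in LV at 0 h, 194 ± 6.24 CPM at 4 h and 116 ± 3.03 CPM at 8 h. Its rise of 0.75 ± 0.14 at 4 h had an edgeR adjusted p of 0.0457, a call lost without number 2 or 3 of 0 h or any 1 library of 4 h, and in RV its difference was 0.67 ± 0.28 (adjusted p = 0.198, and 0.0478 with the replicate number as a block). Crtc2, a coactivator of CREB, rose at 8 h by 1.31 ± 0.30 in LV and 2.02 ± 0.33 in RV (adjusted p = 0.0516 and 0.00637, edgeR), and the LV call was also lost without number 3 of 0 h or of 8 h. The corepressor gene Nab1 rose in RV at 8 h by 0.86 ± 0.18 (adjusted p = 0.0173, edgeR) and Nab2 did not pass the test, with -0.08 ± 0.34. The remaining calls in RV at 8 h, named after their values were seen, were Creb1, Crem and Hdac5 higher, by 0.90, 1.78 and 0.61, and Crtc1, Hdac7, Hdac9 and Mapk3 lower, by -0.67, -1.30, -0.61 and -0.68.

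Several genes known as targets of EGR factors rose in both ventricles. Of 12 tested, 3 rose in LV at 4 h and 4 at 8 h, beside 2.4% and 5.46% of all genes, and 7 rose in RV at each time, beside 6.17% and 13%, with none lower in any of these. Without number 2 of LV at 0 h, 0 were called in LV at either time, and without number 2 of RV at 0 h, 4 and 5 were called in RV. Ptgs2, which encodes the inducible cyclooxygenase, rose in LV from 23.1 ± 11.9 CPM at 0 h to 111 ± 40.0 CPM at 8 h and in RV from 17.9 ± 9.42 to 273 ± 31.8 CPM. Its log2 differences at 8 h were 2.26 ± 0.37 in LV and 3.94 ± 0.39 in RV, with edgeR adjusted p-values of 0.018 and 0.00107. Cd44, a receptor for hyaluronan, rose at 8 h by 1.58 ± 0.32 in LV and 2.24 ± 0.32 in RV (adjusted p = 0.0343 and 0.00364, edgeR). Tgfb1, a growth factor of fibrosis, rose by 0.86 ± 0.21 in LV and 1.36 ± 0.34 in RV (adjusted p = 0.0622 and 0.0326, edgeR). The LV calls of Cd44 and Tgfb1 at 8 h and the RV call of Tgfb1 were also lost without number 3 of 0 h, the RV call of Tgfb1 without number 2 of 0 h, and the LV call of Tgfb1 without number 1 or 3 of 8 h. Egr1 and Egr2 in LV at 8 h differed from 0 h by 0.07 and 0.03 in log2. The fourth target that rose in LV at 8 h, named after its values were seen, was Pdgfa, by 0.94.

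Most calls among partners and targets of MYC were higher ones. Of 23 tested, 1 rose in LV at 4 h, near the 2.4% of all genes, and at 8 h 6 rose and 1 fell, beside 5.46% and 1.26%. In RV, 5 rose and 1 fell at 4 h, beside 6.17% and 3.91% of all genes, and 10 rose at 8 h, beside 13%. Without number 2 of 0 h of the same ventricle, LV had 0 calls at 4 h and 1 at 8 h, and RV had 0 at 4 h and 7 at 8 h. Max, the partner of Myc, did not pass the test in any of these, with differences between -0.08 and 0.19. Of the genes for ribosome production and growth, Nop58, a protein of small nucleolar ribonucleoproteins, rose at 8 h by 1.38 ± 0.28 in LV and 2.30 ± 0.33 in RV (adjusted p = 0.0369 and 0.00364, edgeR). Odc1, the first enzyme of polyamine synthesis, rose by 0.99 ± 0.26 and 2.12 ± 0.31 (adjusted p = 0.0737 and 0.0042, edgeR). Gnl3, a nucleolar GTPase, rose by 0.72 ± 0.18 and 1.49 ± 0.22 (adjusted p = 0.067 and 0.00425, edgeR). The LV calls of these 3 genes were lost without number 2 or 3 of 0 h, and those of Odc1 and Gnl3 also without number 1 or 3 of 8 h. The genes that fell, named after their values were seen, were Mnt, a competitor of Myc for Max, in LV at 8 h by -0.76, and Mxd4, another such competitor, in RV at 4 h by -0.83.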

How the data were processed

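RNA of LV and RV was sequenced in 18 libraries, and groups and replicate numbers were taken from the sample labels. The authors deposited estimated counts per transcript, made with Kallisto at default parameters on GRCm38 and not normalized between libraries, beside TPM scaled within each library and transcript lengths. The estimated counts of 110203 of 111462 transcripts were summed to 34989 genes with GENCODE M21, and 1259 unmatched transcripts, at most 0.383% of a library, were left out. Reads fitting several transcripts were divided by Kallisto, so paralogs can share counts. The depth of 22552581 to 46236771 estimated counts limits the precision of the lowest genes.

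Rounded sums passed through filterByExpr and TMM scaling, and R 4.3.3 with edgeR 4.0.16 then fitted quasi-likelihood models, with Benjamini-Hochberg adjustment over all genes, in the 9 libraries of a ventricle for storage times and in all 18 for LV against RV. The test without blocks was checked on simulated independent libraries, for LV at 8 h against 0 h and for the difference in the change at 8 h. The fits with blocks were not checked in this way. Alternatives were DESeq2 1.42.0, RLE factors, no filter, an adjusted p under 0.05, no mitochondrial genes, length offsets, all 18 libraries in 1 fit, blocks and libraries left out, and, added after seeing the data, whole hearts left out. Python 3.11.15 with pandas 2.3.3 made the sums.

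The 9 genes and all lists were chosen with earlier results of these data known. Named from the lists were Fos, Jun, Atf3, Srf, Nab1, Nab2, Max and, per list, up to 3 genes with the largest difference among those called in 1 direction in both ventricles at 8 h. For Egr1, Nr4a1 and Myc the 3 highest Pearson correlations were named. Other genes are marked as chosen after their values were seen.

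The numbers in the labels were checked as pairs by the correlation of deviations from group means. Same-numbered LV and RV libraries, taken as 1 heart since both ventricles of a heart were collected, had a correlation of 0.325 to 0.697 in 9 pairs, against at most 0.165 in the 18 pairs of other numbers. Same-numbered RV libraries had at least 0.111 for 0 h with 4 h, 0.165 for 0 h with 8 h and 0.327 for 4 h with 8 h. RV pairs of other numbers reached 0.0891, 0.0747 and 0.226 in the same order. LV libraries at 4 h and 8 h had at least 0.358, against at most 0.230 for other numbers. Libraries of different storage times come from different hearts, so the replicate block is a shared number, whose meaning the labels do not give. The low Y-linked sums were in number 2 at 0 h and in number 3 at 4 h and 8 h. LV at 0 h had minima of 0.040 with 4 h and -0.019 with 8 h, so a pairing of its numbers was not shown. The LV fits with the replicate number as a block still included these libraries by number.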

Additional observations from a re-analysis of the deposited data

Results flagged for a closer look

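A test of the difference itself, with the heart as a block, called the change from 0 h to 8 h lower in LV than in RV for all 9 genes, beside 4.72% of all genes. The change in LV minus that in RV was, on the log2 scale, -1.81 for Egr1, -1.81 for Egr2, -1.996 for Egr3, -1.51 for Nr4a1, -2.19 for Nr4a2, -1.56 for Nr4a3, -1.50 for Ier2, -1.14 for Ier3 and -1.63 for Myc. At 4 h this was so for Egr3, at -1.53, beside 0.265% of all genes. Because the genes were listed with such results known, these values are descriptions and no independent evidence. In the fit without hearts none of these differences was called. Without the heart of 0 h number 2 or that of 8 h number 1, 7 of the 9 were called at 8 h, without that of 0 h number 1, 8 were, and without any 1 of the other 6 hearts all 9 were. Of all genes, 3.24% to 5.57% were called lower in these fits.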

How the results depend on the processing

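The directions of all 9 genes in RV against 0 h, and those of LV against RV at 0 h and 8 h, were the same under every alternative that kept all libraries, and no called value changed sign. Counts of called genes among the 9 did change. At an adjusted p under 0.05 they were 0 in LV at 4 h, 0 in LV at 8 h and 3 in RV at 4 h. DESeq2 called 4 in LV at 8 h, 8 in RV at 4 h, 2 in LV between 4 h and 8 h, and 1 between ventricles at 8 h, and the fit of all 18 libraries called 3 in LV at 8 h. Of the other immediate-early genes, DESeq2 called 17 in LV at 4 h and 9 at 8 h, the unfiltered fit 5 and 4, and the fit of 18 libraries 8 at 4 h, while at 8 h an adjusted p under 0.05 left 0 and leaving out mitochondrial genes or adding length offsets left 1. Shares of all genes under these alternatives are not given here, so nothing is read from these counts.

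With the replicate number as a block, 1 gene of the 9 was called in LV at 4 h, 2 in LV at 8 h (Egr3 lower and Myc higher), 7 in RV at 4 h and 7 in RV at 8 h, where 8.45% and 15.5% of all genes were called higher, and 7 and 8 of the other immediate-early genes in LV at 4 h and 8 h. The block on hearts called 4 between ventricles at 0 h, 1 at 4 h and 9 at 8 h, and 1 and 9 for the difference in the change at 4 h and 8 h. Samples of different storage times in the replicate block share only a number, and for LV at 0 h no pairing was shown.

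Leaving out single libraries gave 0 to 2 called genes of the 9 in LV at 4 h, 0 to 3 in LV at 8 h (0 without number 2 of 0 h or number 1 of 8 h, 3 without number 3 of 8 h), 1 to 8 in RV at 4 h (1 without number 2 or 3 of 0 h or number 1 of 4 h), 3 to 7 in RV at 8 h, and 0 to 4 between ventricles at 8 h (4 without number 3 of LV at 8 h). The other immediate-early genes called were 0 to 17 in LV at 4 h, 0 to 9 in LV at 8 h, 9 to 31 in RV at 4 h and 27 to 37 in RV at 8 h. Shares of all genes in the fits without single libraries are not given here, so nothing is read from these counts. With the heart as a block and whole hearts left out, 0 to 6 of the 9 were called between ventricles at 0 h, 0 to 1 at 4 h and 7 to 9 at 8 h, and 0 to 6 and 7 to 9 for the difference in the change at 4 h and 8 h. Of all genes, 0.346% to 1.12% were called higher in LV at 0 h, and 0.111% to 1.42% lower at 4 h and 4.04% to 7.21% at 8 h. For the difference in the change, 0% to 0.902% were lower at 4 h and 3.24% to 5.57% at 8 h. The cause of these shifts was not tested. Of the log2 differences of the 9 genes under all alternatives, 34 moved by more than the spread between replicates and 2414 did not. Of the values of other named genes, 90 lost and 38 gained a call, and 960 kept their side of the threshold.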
